A study of Mus musculus with 2 samples.

Results

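In all, 3 Wnt pathway signals and 7 genes that respond to them were followed in nuclei of regenerating mouse liver. The 10 genes were taken by symbol from the 27998 genes of the deposited tables, and all 10 were present. The signals are Wnt2, Wnt9b and Rspo3. The responding genes are Axin2, Lgr5, Rnf43, Znrf3, Nkd1, Tbx3 and Glul. The members were named without use of their values, but with earlier results of these data known.

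Wnt ligands bind Frizzled and Lrp receptors and keep beta-catenin from being degraded, so that it can act with TCF/LEF factors on target genes. R-spondins bind Lgr receptors and remove the ubiquitin ligases Rnf43 and Znrf3 from Frizzled receptors, which strengthens the signal. In the liver lobule the endothelium of the central vein is a known source of both, and the hepatocytes next to that vein carry the targets; Glul, which encodes glutamine synthetase, is their classical marker.

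Liver nuclei were sequenced 48 h after partial hepatectomy (PHx) from C57BL/6 mice aged 12 weeks, as 1 library labelled HKO and 1 labelled WT. The series title names the strains Sox9f/f and Sox9HKO. The labels name no Cre driver and do not say how many animals a library holds. Both groups share the strain, the age and the hepatectomy, and no library without surgery was analysed here. With 1 library per group no difference could be tested, and every interval below is an exact 95% interval that covers counting error only.

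The libraries held 61123904 (HKO) and 64609301 (WT) unique molecular identifiers (UMIs, 1 per captured RNA molecule), with medians of 3286 and 3430 per barcode. Under 2000 UMIs were found in 3856 of the 14912 HKO barcodes and 288 of the 14701 WT barcodes, and 70 barcodes occurred in both libraries. Filters kept 14902 HKO and 14515 WT nuclei. Clusters made without the 10 genes were named from marker genes: 8672 HKO and 9650 WT nuclei were hepatocyte-like, 2347 and 1130 endothelial-like, 1976 and 1088 macrophage-like, and 1163 and 640 stellate-like. Nearly all nuclei of these 4 classes fell into separate clusters for HKO and WT, so the class comparisons set clusters of 1 library beside clusters of the other. The largest hepatocyte-like clusters, for example, held 7301 HKO and 0 WT nuclei, and 1 HKO and 7210 WT nuclei. An unnamed cluster with haemoglobin and mitochondrial genes in the lead held 4 HKO and 1786 WT nuclei. Sox9 itself stood at 5.77 counts per 1000000 UMIs of the class (CPM) in HKO and 11.5 in WT hepatocyte-like nuclei, and at 5.94 and 8.16 in endothelial-like nuclei. These 3' tags need not lie in a deleted part of the gene, so they check the labels only weakly. The 15 hepatocyte markers reached a median of 86.1% (79.2 to 104.8%) of their hepatocyte-like level in HKO endothelial-like nuclei and 94.8% (80.7 to 112.8%) in WT. Hepatocyte RNA was therefore counted at nearly full level in nuclei of other classes, whereas endothelial markers stood at a median of 5.99% (HKO) and 8.15% (WT) of their own class in hepatocyte-like nuclei.

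The genes lie apart in the genome (GRCm38, GENCODE annotation, all protein coding). Wnt2 is at chr6:17988940-18030585 on the minus strand, Wnt9b at chr11:103727364-103749821 (minus) and Rspo3 at chr10:29452416-29535867 (minus). Axin2 is at chr11:108920349-108950783 (plus), Lgr5 at chr10:115450311-115587780 (minus), Rnf43 at chr11:87662722-87735539 (plus) and Znrf3 at chr11:5276324-5444847 (minus). Nkd1 is at chr8:88521354-88594884 (plus), Tbx3 at chr5:119670669-119684724 (plus) and Glul at chr1:153899944-153909723 (plus). Rspo3, Axin2, Lgr5, Rnf43, Tbx3 and Glul overlap an annotated gene on the other strand, and the sources used here do not say whether the counting used strand.

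Promoter windows of 250 bases before to 50 after the start (RefSeq, GRCm38.p6) were found for 6 of the 10 genes, in 7 windows. Those of Axin2 (chr11:108920099-108920398, plus strand), Nkd1 (chr8:88527383-88527682, plus) and Glul (chr1:153899679-153899978, plus) are shown because they are the windows of targets that hold the motif marked here; the 2 windows of Rnf43, also a target, hold none. The Nkd1 window follows a RefSeq start inside the gene's span given above. Capitals mark CCAAT or its reverse complement.
Axin2: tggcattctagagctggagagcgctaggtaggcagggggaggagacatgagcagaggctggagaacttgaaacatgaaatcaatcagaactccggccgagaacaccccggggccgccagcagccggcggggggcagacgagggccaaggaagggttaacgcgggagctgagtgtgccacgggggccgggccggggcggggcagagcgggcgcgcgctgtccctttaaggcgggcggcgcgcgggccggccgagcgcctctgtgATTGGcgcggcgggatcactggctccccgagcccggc
Nkd1: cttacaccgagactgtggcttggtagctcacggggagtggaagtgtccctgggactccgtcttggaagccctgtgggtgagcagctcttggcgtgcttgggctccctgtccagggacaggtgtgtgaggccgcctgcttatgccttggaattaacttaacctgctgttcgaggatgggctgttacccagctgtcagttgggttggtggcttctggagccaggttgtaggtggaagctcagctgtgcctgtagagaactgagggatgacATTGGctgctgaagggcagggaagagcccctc
Glul: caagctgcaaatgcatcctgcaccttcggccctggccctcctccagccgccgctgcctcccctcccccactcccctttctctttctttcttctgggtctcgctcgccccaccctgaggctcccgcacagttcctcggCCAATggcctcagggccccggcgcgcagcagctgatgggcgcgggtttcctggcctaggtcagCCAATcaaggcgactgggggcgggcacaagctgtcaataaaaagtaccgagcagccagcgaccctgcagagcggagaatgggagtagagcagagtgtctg
In all, 7 motifs were searched on both strands. Of these, 6 were spellings of the TCF/LEF core, and none of the 6 occurred in any of the 7 windows. Of all 32851 windows, 16.0% held the spelling CTTTGA. Its extensions were rarer: 3.73% of windows held the spelling CTTTGAT, 5.14% held the spelling CTTTGAA and 0.938% held the spelling CTTTGATC, all of which contain the first. Another 3.63% held the spelling CTTTGTA and 5.85% held the spelling CTTTGTT. The motif CCAAT was searched afterwards, because the other 6 had no match to mark, and it occurred in 5 of the 7 windows and in 37.4% of all windows.

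Wnt2 and Wnt9b were highest in endothelial-like nuclei, and Rspo3 in stellate-like nuclei, in both libraries. Wnt2, a ligand of the central vein and the sinusoids, stood at 24.2 CPM (21.1 to 27.7) in HKO and 24.9 (20.8 to 29.5) in WT endothelial-like nuclei. In hepatocyte-like nuclei it stood at 1.24 and 1.51 CPM, which makes the endothelial level 19.6-fold (14.2 to 27.4) and 16.5-fold (12.1 to 22.5) higher. Wnt2 in macrophage-like nuclei (3.49 and 3.86 CPM) and stellate-like nuclei (2.23 and 5.33 CPM) had overlapping intervals within each library. In WT the endothelial interval overlapped those of some small groups. Among these were 113 T/NK-like nuclei, named from T and NK cell markers, at 8.45 CPM (2.30 to 21.6, from 4 UMIs).

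Wnt9b, a second endothelial ligand, was scarcer. The class total was 39 UMIs (HKO) and 52 UMIs (WT) in endothelial-like nuclei, or 4.45 CPM (3.17 to 6.09) and 9.87 CPM (7.37 to 12.9). Hepatocyte-like nuclei stood at 0.237 and 0.343 CPM, so the endothelial level was 18.8-fold (8.95 to 44.1) and 28.7-fold (15.9 to 55.0) higher. The intervals of endothelial-like nuclei and of small groups with 1 or a few Wnt9b UMIs overlapped.

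Rspo3, the R-spondin of the central vein, stood at 259.9 CPM (245.2 to 275.2) in HKO and 267 (249 to 287) in WT stellate-like nuclei, the class of perivascular mesenchymal cells. Endothelial-like nuclei came next, at 56.5 CPM (51.6 to 61.7) and 85.8 (78.1 to 94.1). In HKO this interval overlapped that of the 124 cholangiocyte-like nuclei, at 47.2 CPM (26.4 to 77.9, from 15 UMIs). Stellate markers in endothelial-like nuclei stood at a median of 3.95% (1.70 to 18.4%) and 6.13% (1.68 to 21.2%) of their stellate-like level, and the part of stellate RNA in the endothelial Rspo3 was not tested. Hepatocyte-like nuclei stood at 6.08 and 5.75 CPM. With equal weight for each nucleus the HKO endothelial-like levels were over 1.5 times higher, at 92.2 CPM for Rspo3, 37.2 for Wnt2 and 8.02 for Wnt9b, and the WT levels were 125, 34.6 and 14.1 CPM.

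Nkd1, an inhibitor that Wnt signalling switches on, was the target whose highest level lay outside hepatocyte-like nuclei. It stood at 44.1 CPM (38.2 to 50.7) in HKO and 75.3 (65.5 to 86.2) in WT stellate-like nuclei, against 1.84 and 2.54 CPM in hepatocyte-like nuclei. The other 6 targets were, among the 4 large classes, highest in hepatocyte-like nuclei, by small margins. In endothelial-like nuclei, Axin2, Lgr5, Rnf43, Znrf3, Tbx3 and Glul stood at 59.5 to 87.7% of the level in hepatocyte-like nuclei (HKO) and at 67.2 to 84.9% (WT). Since hepatocyte markers were as high there, these class levels do not show in which class the targets are transcribed.

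**Figure D1:**
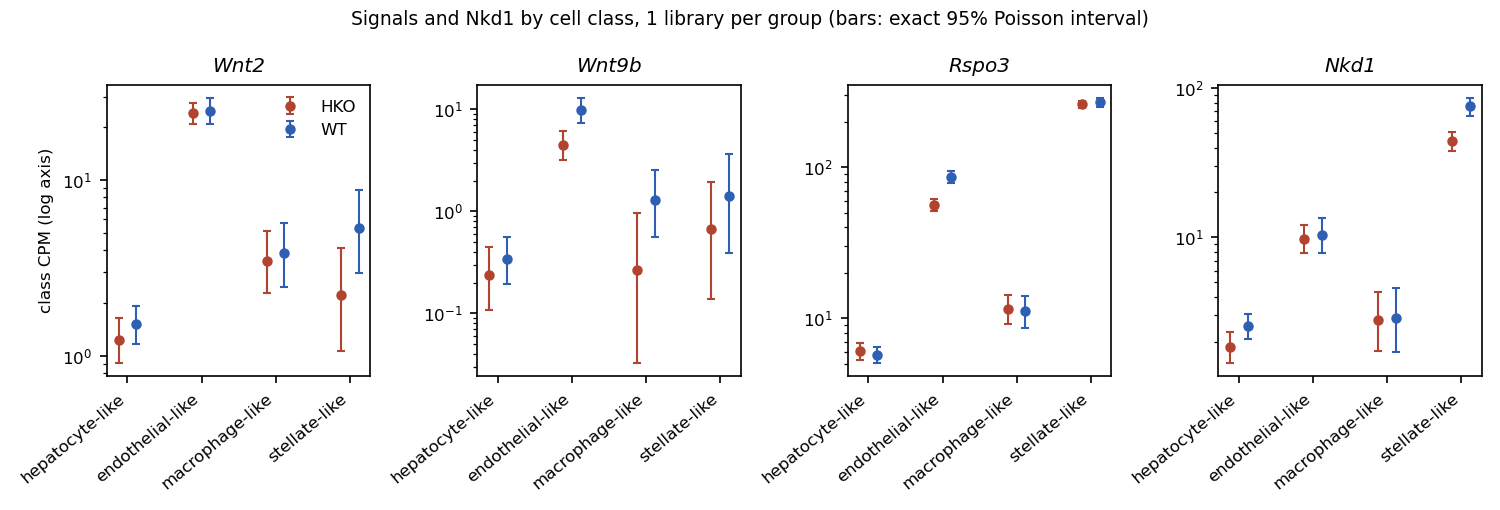
Class CPM (log axis) of Wnt2, Wnt9b, Rspo3 and Nkd1 in 4 cell classes; red points are the HKO library, blue the WT library, and bars are exact 95% Poisson intervals. Wnt2 and Wnt9b peak in endothelial-like nuclei, Rspo3 and Nkd1 in stellate-like nuclei.

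Within the endothelium the signals were highest in nuclei with central vein genes. Endothelial-like nuclei thinned to 1500 UMIs were scored by 7 central vein genes against 7 portal and arterial genes, none of them a member, and divided into 3 equal bins per library. Rspo3 stood at 15.6, 22.4 and 131.9 CPM from the portal to the central bin in HKO, and at 34.0, 30.1 and 228 CPM in WT. The central bin was thus 8.45-fold (5.83 to 12.7) and 6.72-fold (5.002 to 9.18) above the portal bin. Wnt2 stood at 20.1, 13.98 and 38.2 CPM in HKO and at 11.1, 14.8 and 55.2 CPM in WT, a fold of 1.90 (1.29 to 2.83) and 4.97 (2.92 to 8.94). Wnt9b stood at 3.02, 1.32 and 8.44 CPM in HKO and at 5.23, 3.06 and 25.5 CPM in WT, from 6, 5 and 19 and from 8, 7 and 37 UMIs. The size used for a difference was a log2 ratio of 1, that is 2-fold, at a mean of at least 10 CPM. Of all genes, 0.191% in HKO and 0.856% in WT were past it toward the central end, as were 1 of 9 members (Rspo3) in HKO and 2 of 9 (Wnt2 and Rspo3) in WT. Wnt9b is not counted, since in WT it reached 10 CPM only through the central bin. With 2 bins in place of 3 the log2 ratio of Wnt2 in HKO went from 0.92 to 0.15, and that of Wnt9b from 1.48 to 0.83.

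Many nuclei had the same score, with 573 of 1800 in HKO and 381 of 1130 in WT within 0.1 SD of the upper boundary, and the middle bin held deeper nuclei with fewer endothelial marker counts. Groups that keep ties apart, added after the data were seen, also had their highest levels at the central end. In nuclei with more central than portal UMIs (407 HKO, 377 WT), Wnt2 stood at 47.7 and 52.8 CPM, Wnt9b at 13.6 and 25.4, and Rspo3 at 190.3 and 230.5. In nuclei with more portal than central UMIs (716 and 330), Wnt2 stood at 20.1 and 9.74 CPM, Wnt9b at 2.99 and 4.49, and Rspo3 at 19.2 and 24.7. The signals also occurred in the same nuclei. Among the 1800 HKO and 1130 WT nuclei scored (547 HKO nuclei under 1500 UMIs were left out), 109 and 89 held at least 1 Rspo3 UMI after thinning. In these, Wnt2 stood at 100.7 and 106 CPM and Wnt9b at 36.8 and 78.3, against 18.1 and 19.6 CPM and 1.97 and 5.46 CPM in the others. Summed stellate markers in the nuclei with Rspo3 were 93.3 and 204 CPM, against 74.7 and 163 in those without.

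**Figure D2:**
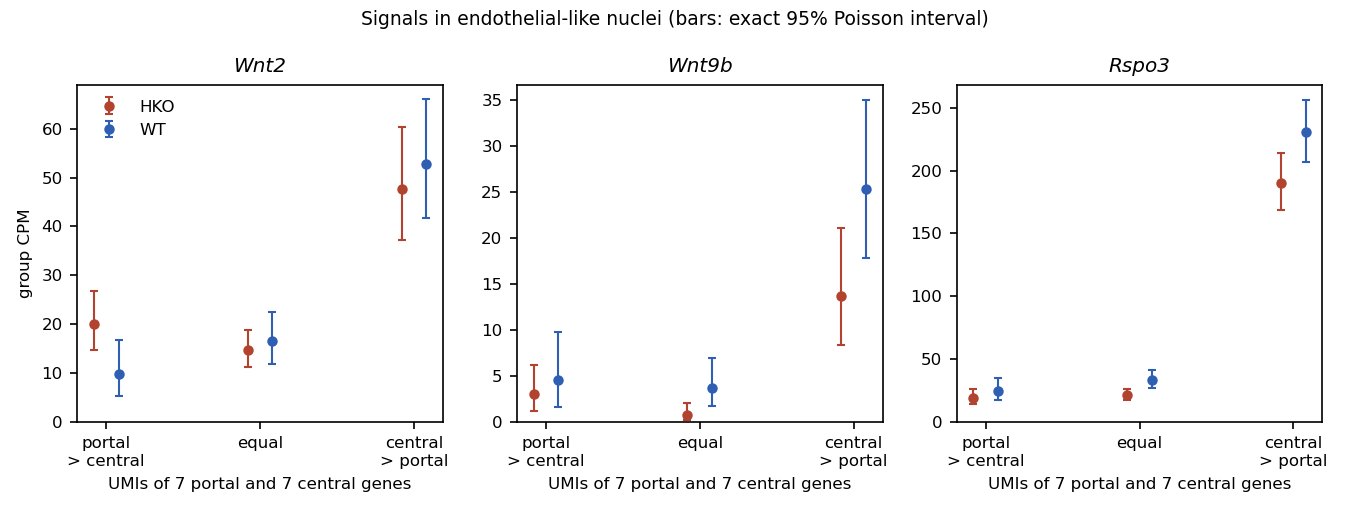
Group CPM of Wnt2, Wnt9b and Rspo3 in endothelial-like nuclei with fewer, equal or more UMIs of 7 central vein genes than of 7 portal and arterial genes; red is HKO, blue WT, and bars are exact 95% Poisson intervals. All 3 signals are highest where central vein genes prevail.

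All 7 targets were higher at the pericentral than at the periportal end of the hepatocytes, whereas the interval of each of the 3 signals included equal levels. Hepatocyte-like nuclei thinned to 2000 UMIs (7676 HKO and 9551 WT, with 996 and 99 shallower ones left out) were scored by 18 pericentral against 18 periportal genes, without the members, and divided into 5 bins per library. Glul stood at 29.7, 38.0, 47.8, 99.4 and 484 CPM from bin 1 (periportal) to bin 5 (pericentral) in HKO. In WT it stood at 68.2, 83.8, 121, 196 and 806 CPM. The level was steepest at the pericentral end, 16.3-fold (14.2 to 18.8) above bin 1 in HKO and 11.8-fold (10.9 to 12.9) in WT.

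Lgr5, the R-spondin receptor, was more graded. It stood at 25.4, 38.7, 68.9, 129 and 295 CPM in HKO and at 36.9, 58.0, 103, 172 and 372 CPM in WT, an 11.6-fold (9.98 to 13.6) and 10.1-fold (8.99 to 11.3) difference between the ends. Axin2, a scaffold of the beta-catenin destruction complex and a feedback inhibitor, stood at 4.51, 6.59, 8.56, 13.1 and 22.1 CPM in HKO and at 8.96, 14.4, 18.0, 25.3 and 44.5 CPM in WT. Its fold was 4.89 (3.33 to 7.39) and 4.97 (3.89 to 6.41). Tbx3, a transcriptional repressor, was 5.90-fold (4.80 to 7.31) and 5.57-fold (4.68 to 6.68) higher at the pericentral end. The ubiquitin ligases were flatter: Rnf43 was 2.19-fold (2.04 to 2.35) and 2.78-fold (2.62 to 2.95) higher, and Znrf3 1.62-fold (1.53 to 1.71) and 1.64-fold (1.54 to 1.73). Nkd1 was low, at 4.02 and 8.08 CPM in bin 5, from 29 and 69 UMIs, and 7.14-fold (2.51 to 27.9) and 8.91-fold (4.28 to 21.4) above bin 1.

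Of the 6 targets at or above 10 CPM, 5 were past 2-fold toward the pericentral end in each library (Znrf3 was not), while 1.12% of 8269 genes in HKO and 1.26% of 8268 in WT were. The 5 include Axin2, which reached 10 CPM only through bin 5, where it was high. In the periportal bin it stood at 4.51 CPM in HKO and 8.96 in WT. None of the 6 was past 2-fold toward the periportal end, against 0.955% and 1.06% of genes. Several score genes are themselves known Wnt targets. With 8 of these left out of the score, 6 of 7 targets in each library were at least 2-fold higher, the same count as in the main score. Both counts used no CPM floor, so the 7 include Nkd1, and the share of all genes was not computed for the changed score. Of the target folds in both libraries, 7 stayed inside their counting interval under the changed score and 7 did not. Median depth differed little between bins, from 4132.5 to 4211 UMIs in HKO and 3718.5 to 3888.5 in WT. Rspo3 stood between 4.86 and 7.13 CPM in all bins of HKO and between 3.65 and 6.64 in WT, with no order from end to end.

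**Figure D3:**
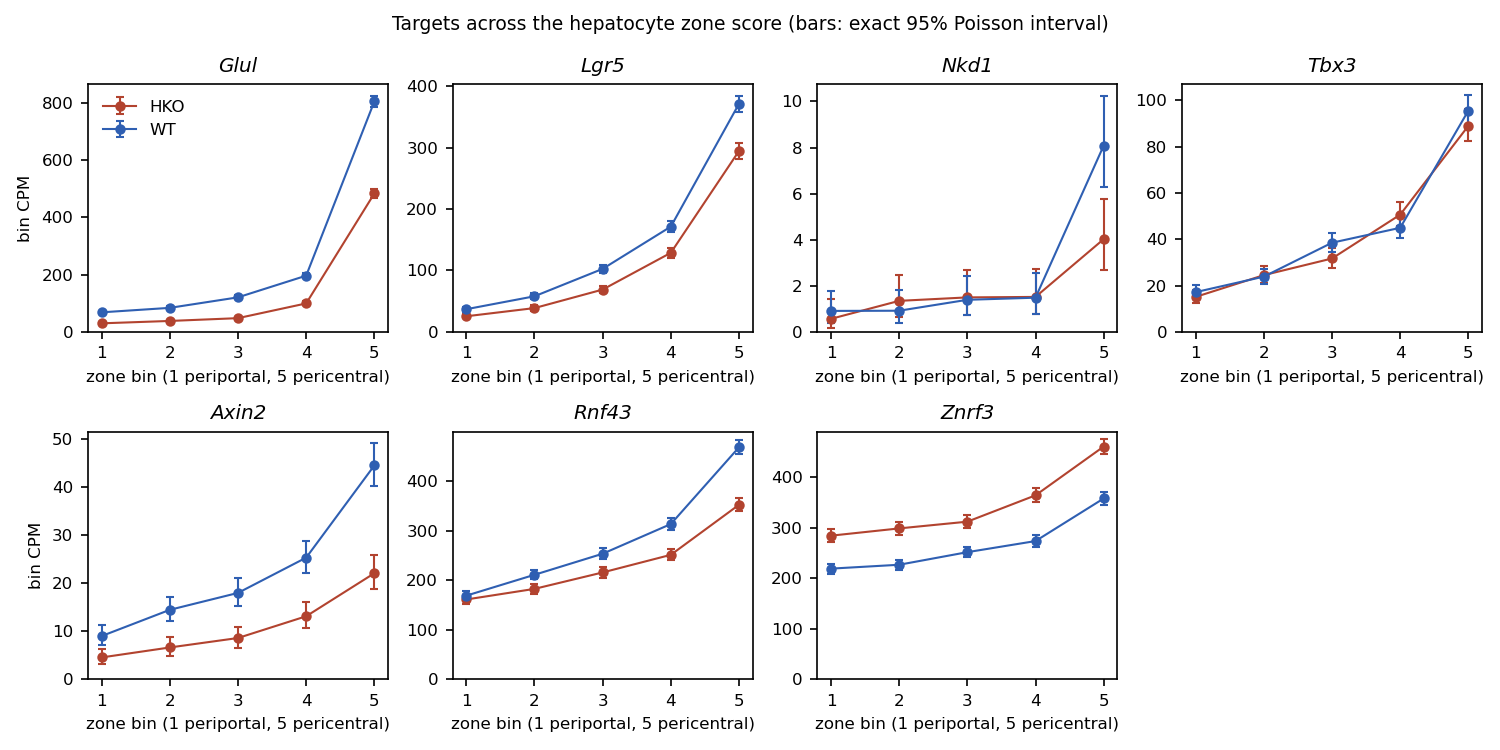
Bin CPM of the 7 targets in 5 bins of hepatocyte-like nuclei, from 1 (periportal) to 5 (pericentral); red is HKO, blue WT, and bars are exact 95% Poisson intervals. Bin 5 is the highest in all panels; Glul and Nkd1 differ most in the last step, and Rnf43 and Znrf3 differ least between the ends.

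Whole clusters also differed in Glul. In each library 1 hepatocyte-like cluster (806 HKO and 1270 WT nuclei), led by Meg3 and Slc1a2, stood at 1097 and 1236 CPM of Glul, against 48.3 and 95.7 CPM in the largest hepatocyte-like cluster. These are 2 clusters, each of 1 library, and were set side by side after the data were seen. Glul is itself among the 10 leading genes of both clusters. Of their scored nuclei, 80.3% and 75.9% fell in bin 5. Slc1a2 is also a pericentral gene of the score, so a high share in bin 5 was partly given in advance. Lgr5 stood at 471 and 467 CPM there, 6.84-fold (6.41 to 7.30) and 4.89-fold (4.64 to 5.15) above the largest cluster.

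Nuclei with more Glul also held more of the other targets. With 0, 1, 2 to 4 and 5 or more Glul UMIs among 2000, Lgr5 stood at 83.5, 172, 420.3 and 592 CPM in HKO and at 105, 161, 359 and 665 CPM in WT. Axin2 stood at 9.37, 16.3, 25.1 and 37.6 CPM in HKO and at 17.9, 23.9, 45.6 and 68.6 in WT. Nkd1 was 10.4-fold (3.57 to 24.9, from 6 UMIs) and 18.7-fold (11.3 to 30.6, from 31 UMIs) higher with 5 or more Glul UMIs than with 0. Tbx3 was 3.78-fold and 4.48-fold higher, Rnf43 2.58-fold and 2.43-fold, and Znrf3 1.78-fold and 1.71-fold. Of the 5 other targets whose class level was at least 10 CPM, 4 were past 2-fold in each library (Znrf3 was not), against 2.36% of all genes in HKO and 1.64% in WT. Nkd1 is not counted, since in WT it reached 10 CPM only through the group in which it was high. Axin2 is counted, though in HKO nuclei with 0 Glul UMIs it stood under 10 CPM, at 9.37.

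A single Glul UMI does not mark a pericentral hepatocyte in these libraries. Of hepatocyte-like nuclei thinned to 2000 UMIs, 14.4% in HKO and 24.3% in WT had at least 1, and of endothelial-like nuclei thinned likewise 14.7% and 24.3% did, at median unthinned depths of 4166.5 and 3820 and of 3794 and 3353 UMIs. Without thinning the shares were 21.9% and 35.7% of hepatocyte-like and 22.1% and 38.0% of endothelial-like nuclei. At 5 or more UMIs the classes parted: 125 hepatocyte-like nuclei in HKO (1.63%, 1.36 to 1.94%) and 313 in WT (3.28%, 2.93 to 3.65%), against 6 (0.491%, 0.180 to 1.07%) and 12 (1.08%, 0.560 to 1.88%) endothelial-like nuclei.

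**Figure D4:**
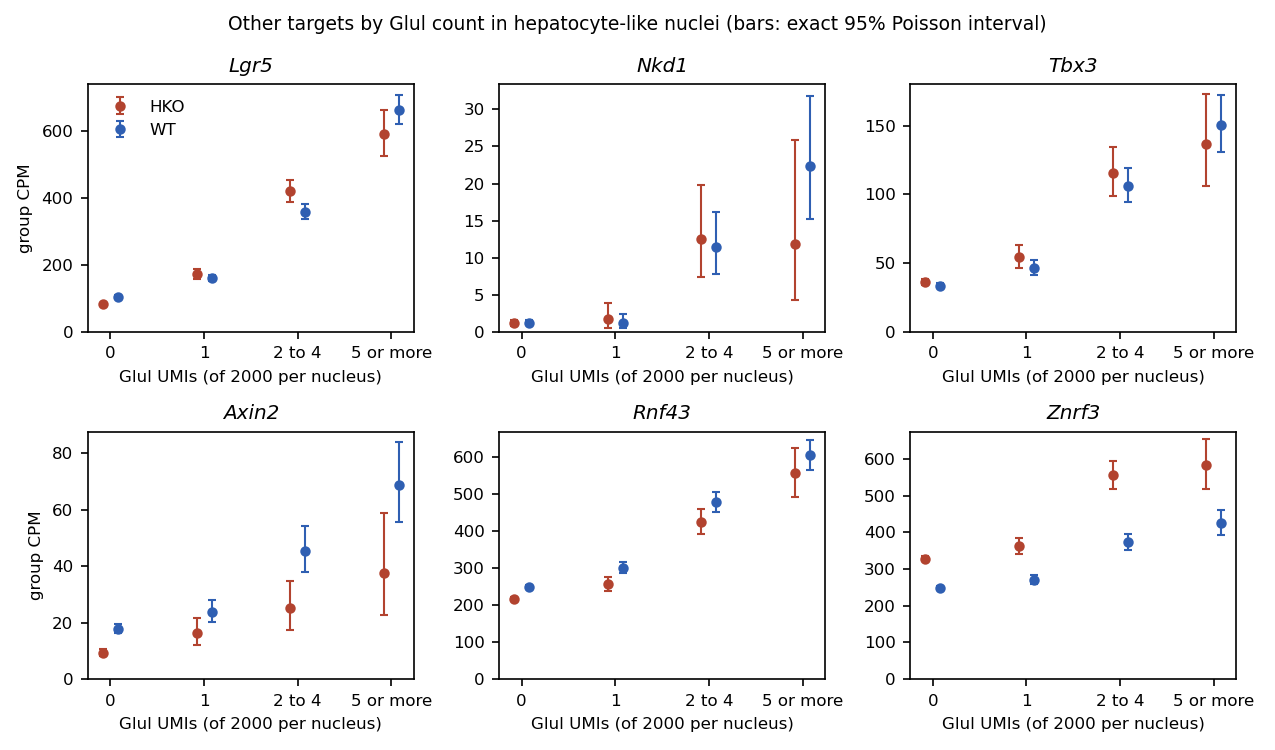
Group CPM of 6 other targets in hepatocyte-like nuclei with 0, 1, 2 to 4, and 5 or more Glul UMIs of 2000; red is HKO, blue WT, and bars are exact 95% Poisson intervals. All 6 are higher with 5 or more Glul UMIs than with 0, by 1.71-fold (Znrf3, WT) to 18.7-fold (Nkd1, WT).

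Between the libraries, Wnt9b and Rspo3 of the endothelium stood lower in HKO, and Wnt2 there and Rspo3 in stellate-like nuclei were near the WT level. Wnt9b in endothelial-like nuclei was lower in HKO, at 0.451 of the WT level (0.290 to 0.697), and Rspo3 likewise, at 0.659 (0.579 to 0.750). Wnt2 was at 0.973 (0.779 to 1.22), an interval that includes equal levels. Rspo3 in stellate-like nuclei was at 0.972 (0.886 to 1.07), and Nkd1 there at 0.585 (0.480 to 0.714). None of the 9 members at or above 10 CPM in endothelial-like nuclei was past 2-fold in either direction, against 2.63% (higher) and 4.53% (lower) of 8905 genes; Wnt9b lay under that floor. Depth moved with this comparison. When the endothelial-like nuclei under 2000 UMIs (1125 of 2347 in HKO and 21 of 1130 in WT) were left out, Rspo3 stood at 38.3 CPM in HKO and 86.3 in WT, a log2 ratio of -1.16, and Wnt9b at 2.56 and 9.57 CPM, a log2 ratio of -1.72. Wnt2 then stood at 17.8 and 24.9 CPM, a log2 ratio of -0.47. In stellate-like nuclei the same filter gave Rspo3 at 228 CPM in HKO and 266 in WT, and Nkd1 at 36.9 and 75.1 CPM, which is past 2-fold. Summed stellate markers in endothelial-like nuclei were also lower in HKO, at 80.0 CPM against 165.7. The part of depth and of stellate RNA in these differences was not tested. At least 1 Rspo3 UMI was found in 8.73% (7.62 to 9.95%) of HKO and 12.0% (10.2 to 14.1%) of WT endothelial-like nuclei. Their median depths were 2066 and 3274 UMIs. The parts of fewer expressing nuclei and of less RNA per nucleus in the sums were not tested.

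Among hepatocyte-like nuclei Axin2 and Glul were furthest below WT in HKO, and Znrf3 was above it. Axin2 stood at 11.3 CPM in HKO and 22.1 in WT, a ratio of 0.511 (0.455 to 0.573). Glul stood at 142 and 253 CPM (0.563, 0.545 to 0.581), Lgr5 at 111 and 147 (0.758, 0.729 to 0.788) and Rnf43 at 230.4 and 282 (0.818, 0.796 to 0.841). Nkd1 was at 0.725 (0.530 to 0.987) of WT and Tbx3 at 0.956 (0.894 to 1.02). Znrf3, which acts like Rnf43 on Frizzled receptors, went the other way, at 341 and 265 CPM (1.29, 1.25 to 1.32). Hepatocyte-like nuclei had a median of 0.0745% (HKO) and 0.271% (WT) mitochondrial UMIs, and the part of this in these differences was not tested. None of the 6 at or above 10 CPM was past 2-fold, against 3% (higher) and 4.46% (lower) of 8409 genes. The median log2 ratio of all these genes was 0.16 and that of the 6 targets -0.34. Scaling by median ratio size factors or by TMM lowered every log2 ratio in this class by 0.14 or 0.12, which took Axin2 past 2-fold (-1.07 and -1.06) and Tbx3 from -0.06 to -0.20 and -0.19, outside its counting interval.

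Lower Glul and Lgr5 and higher Znrf3 in HKO were also counted in other classes. In endothelial-like nuclei Glul was at 0.550 (0.503 to 0.602) of WT, Lgr5 at 0.671 (0.595 to 0.757), Axin2 at 0.654 (0.477 to 0.898) and Znrf3 at 1.17 (1.09 to 1.26). The log2 ratio of Znrf3 was 0.23 in this class, near the median of 0.16 over all genes at or above 10 CPM. Nkd1 there was at 0.941 (0.663 to 1.34) and Tbx3 at 0.971 (0.799 to 1.18), and Axin2 in stellate-like nuclei at 0.681 (0.447 to 1.04), intervals that include equal levels. In stellate-like nuclei Glul, at 0.390 (0.343 to 0.443), was the 1 member of 8 past 2-fold, against 2.78% of genes higher and 4.35% lower. In macrophage-like nuclei none of 7 members was past 2-fold, against 2.51% of genes higher and 3.73% lower, and Glul was at 0.641 (0.583 to 0.703). The part of free hepatocyte RNA in the class comparison was not tested.

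In the Meg3 and Slc1a2 clusters the ratios of some targets lay nearer to 1. The difference between clusters was not tested. These clusters held 806 of 8672 hepatocyte-like nuclei in HKO and 1270 of 9650 in WT, so their shares of the class differed. Glul stood at 0.887 (0.853 to 0.923) of WT there, against 0.505 (0.474 to 0.537) in the largest hepatocyte-like clusters, where none of 6 members was past 2-fold and 3.22% of genes were higher and 4.41% lower. Lgr5 was at 1.01 (0.948 to 1.07) and Tbx3 at 1.03 (0.908 to 1.17). Axin2 remained lower, at 31.9 against 52.9 CPM (0.603, 0.480 to 0.753), Rnf43 stood at 0.820 (0.770 to 0.872) and Znrf3 at 1.40 (1.31 to 1.49). None of the 7 members at or above 10 CPM was past 2-fold, with 3.09% of genes higher and 4.06% lower. In bin 5 of the zone score, which holds an equal share of each library's nuclei, Glul was at 0.601 (0.576 to 0.626) and Axin2 at 0.495 (0.409 to 0.598). Lgr5 was lower there too, at 0.793 (0.750 to 0.838), as was Rnf43 at 0.752 (0.715 to 0.791). Tbx3 was at 0.931 (0.838 to 1.03) and Znrf3 at 1.29 (1.23 to 1.35). Nkd1, under 10 CPM, was at 0.498 (0.311 to 0.778). With the pseudocount of 0.5 CPM the log2 ratio of Axin2 was -0.997, just inside the size of 1, and none of the 6 members at or above 10 CPM was past it, against 2.96% of genes higher and 4.16% lower. In bin 1 it was passed by 1 of 5 members, Glul at 0.436 (0.371 to 0.511), against 3.31% of genes higher and 5.1% lower.

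**Figure D5:**
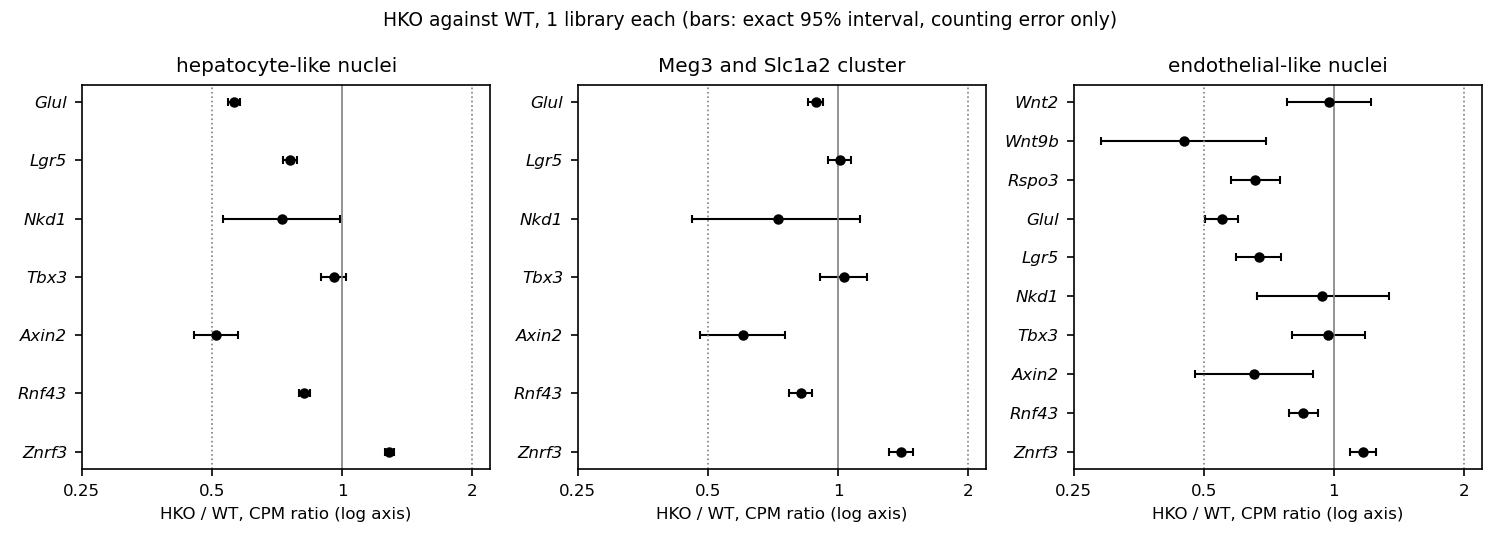
Ratio of HKO to WT CPM (log axis) for the 7 targets in hepatocyte-like nuclei and in the Meg3 and Slc1a2 clusters, and for all 10 genes in endothelial-like nuclei; bars are exact 95% intervals for counting error, the solid line marks 1 and dotted lines 0.5 and 2. Glul is at 0.563 in all hepatocyte-like nuclei and 0.887 in the Meg3 and Slc1a2 clusters, and Znrf3 is above 1 in each panel.

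Other genes of the pathway came from lists and were compared in the same way. Of all genes in hepatocyte-like nuclei, 3% were past 2-fold higher in HKO and 4.46% lower, so short lists hold few such genes at these shares. Of 20 other Wnt and R-spondin ligands, 1 reached 10 CPM in hepatocyte-like nuclei: Wnt5b, a ligand best known for beta-catenin-independent signalling, stood at 122 CPM in HKO and 33.4 in WT, 3.64-fold higher (3.43 to 3.87). In endothelial-like nuclei Wnt5b also stood at 92.1 CPM in HKO and 23.7 in WT, 3.88-fold higher (3.21 to 4.73). This difference was thus counted outside hepatocytes as well. Wnt5b was nearly level along the hepatocyte zone score, with log2 ratios of 0.18 and 0.43 between its ends. None of the 5 receptors at or above 10 CPM in hepatocyte-like nuclei was past 2-fold. The co-receptor Lrp6 stood at 203 and 220.0 CPM and the R-spondin receptor Lgr4 at 219 and 221. Reck, which helps some Wnt ligands reach their receptor, had a mean under that level, at 10.3 and 3.62 CPM. It was past 2-fold, 2.84-fold higher in HKO (2.35 to 3.44), and 4.05-fold higher (2.34 to 7.50) in endothelial-like nuclei. Neither of the 2 extracellular inhibitors at that level in hepatocyte-like nuclei was past 2-fold. Notum, an enzyme that inactivates Wnt ligands, stood at 48.3 and 51.4 CPM and was 4.79-fold and 2.91-fold higher at the pericentral end.

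In hepatocyte-like nuclei none of 12 destruction complex and relay genes and none of 9 TCF/LEF factors and co-factors was past 2-fold. Of all genes, 3% were higher and 4.46% lower. Their median log2 ratios were 0.35 and 0.25, beside 0.16 for all genes. Gsk3b, a kinase of the complex, stood at 411 and 294 CPM, and Tcf7l2, the main TCF factor by level here, at 654 and 558. Tcf7l1 was lower at the pericentral end, by a log2 ratio of -2.40 in HKO and -2.78 in WT.

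Of 20 other pericentral genes at or above 10 CPM, 2 were past 2-fold higher in HKO and 6 lower, with a median log2 ratio of -0.49, against 3% and 4.46% of all genes. Cyp7a1, the rate-limiting enzyme of bile acid synthesis, stood at 286 CPM in HKO and 69.1 in WT, and Nr1i3, the nuclear receptor CAR, at 568 and 261. The lower genes were Cyp2e1 (421 and 1313 CPM) and Cyp1a2 (28.8 and 172), both drug-metabolising enzymes, with Lect2, Cyp2c37, Cyp2c50 and Rgn. Tnfrsf19, with a mean under 10 CPM and so not counted, stood at 4.71 and 11.8 CPM, a ratio of 0.400 (0.336 to 0.476). In endothelial-like nuclei Cyp2e1 also stood at 334 and 1245 CPM and Cyp7a1 at 241 and 56.6, so these differences too were counted outside hepatocytes. Among 7 central vein endothelial genes, Cdh13 stood at 136 CPM in HKO and 255 in WT endothelial-like nuclei, Kit at 117 and 177, and Fabp4 was past 2-fold higher at 21.0 and 6.45 CPM.

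Genes with the most similar levels were found by Pearson's r of log2(CPM + 1), as a description over points that share libraries. Over 8 points (4 classes in 2 libraries), Reep1, Emcn and Sh3tc2 were most like Wnt2 (r of 0.988 to 0.990), Podxl, Gfod1 and Rasgrf2 most like Wnt9b (0.977 to 0.980), and Sema3d, Plscr4 and Adgra2 most like Rspo3 (0.992 to 0.995). Emcn is one of the endothelial markers, and Adgra2 is on the list of Wnt receptors. Over the 10 zone bins, Sgcz, Slc1a2 and Oat were most like Glul (0.980 to 0.994); Slc1a2 and Oat are genes of the score.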

How the data were processed

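Nuclear RNA was measured by droplet 3' sequencing in 2 liver libraries, HKO and WT, grouped by their titles because the genotype field holds the age. The authors deposited raw UMI counts per gene and barcode, made with Cell Ranger 5.0.0 per the file headers. The submitters' processing notes also name STAR, Seurat 3.2.0 and GRCm38. The protocols in the labels do not describe the isolation of nuclei.

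Filters of 500 or more genes and of mitochondrial UMIs under 10% removed 10 barcodes in HKO and 186 in WT. Scrublet (scanpy 1.11.5, expected rate 0.1) marked 0 barcodes in both libraries, so doublets were in effect not removed. Clusters came from 2000 variable genes, without the 10 members, mitochondrial genes and Xist, with 30 principal components and 15 neighbours in leidenalg 0.10.2 at a resolution of 0.5. A cluster was named for a class other than hepatocytes where at least 3 of its markers were 2-fold above the median of the library's other clusters and no second class came close. Clusters without such a class were called hepatocyte-like where at least 3 hepatocyte markers lay above that median and haemoglobin or mitochondrial genes did not lead. Of 27998 genes, 27645 matched the GENCODE annotation.

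CPM came from UMI sums over the nuclei of a class in each library. Levels carry exact Poisson intervals, shares Clopper-Pearson intervals and folds exact conditional intervals, all for counting error only. Log2 ratios used a pseudocount of 0.5 CPM. Scores were means of scaled log counts in thinned nuclei. TMM factors came from edgeR 4.0.16. The scripts were tested on simulated data.

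The members and lists were chosen with earlier results of these data known. The scoring rule behind class names, the comparison of the Meg3 and Slc1a2 clusters, the split by Rspo3 and the motif spellings were chosen after the data were seen. Named were all 10 members. From each list, the rule allows up to 3 genes of highest mean CPM and genes past 2-fold with a mean of at least 5 CPM. Genes most like a member were the 3 with the highest correlation.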

Additional observations from a re-analysis of the deposited data

How the results depend on the processing

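No paired analysis was possible because each group has 1 library. Of 86 counts of genes recomputed under another setting, 80 stayed within 1.5 times the reported count. Members lower in HKO hepatocyte-like nuclei went from 0 to 1 (Axin2) with median ratio size factors and with TMM factors. Members lower in HKO endothelial-like nuclei went from 0 to 1 with nuclei of at least 2000 UMIs (Rspo3) and with no floor on CPM (Wnt9b). In the reported setting 4.46% of all genes were lower in hepatocyte-like nuclei and 4.53% in endothelial-like nuclei. These shares were not recomputed under the other settings. Listed genes of the pathway and of the other pericentral genes that were higher in HKO endothelial-like nuclei went from 3 to 6 with no floor. The 3 are Wnt5b and the pericentral genes Cyp7a1 and Nr1i3. In HKO, signals at least 2-fold higher at the central end of the endothelial score went from 2 to 1 with 2 bins. Rspo3 stayed past 2-fold, and Wnt9b did not (log2 ratio from 1.48 to 0.83). This count has no CPM floor, so it includes Wnt9b, which the count of members in the Results leaves out. The share of all genes was not computed for it. The cause of these changes was not tested, beyond the lower floor, which admits more genes. Of 273 values of single genes recomputed, 201 stayed inside the counting interval of the reported value, and 8 changed sign, all of them of genes within 2-fold. Settings added after the data were seen left out shared barcodes, left out cycling nuclei from the zone score, added the WT cluster led by haemoglobin and mitochondrial genes to the hepatocyte-like class, or kept score ties apart; none of these moved a count by over 1.5 times. Low counts widen the intervals of Wnt9b in all classes and of Wnt2 and Nkd1 in hepatocyte-like nuclei.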
